A study of Rattus norvegicus with 9 samples.

Results

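L1cam, Nfasc, Nrcam, Nrxn2 and Nxph4, 5 genes of neuronal cell adhesion out of 32662 in the count table, were followed in RN46A, a rat serotonergic cell line that came from embryonic raphe neurons. They were picked by name from the authors' deposited tables of VPA effects, and each matched 1 Ensembl identifier. Growth was at 33 °C with 5% serum. A shift to 39 °C with 1% serum for 72 h, which differentiates the line, came before a further 72 h as control, with 0.5 mM lithium or with 0.5 mM VPA (valproate), and each of these 3 groups had 3 libraries. The sources used here do not give what controls received in place of a drug, and all groups come from 1 cell line.

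L1cam, Nfasc (neurofascin) and Nrcam encode members of the L1 family. These are membrane proteins with immunoglobulin and fibronectin type III domains outside the cell and a short tail that binds ankyrin, through which they are tied to the spectrin skeleton. They act in axon growth and bundling, and neurofascin and NrCAM gather at the axon initial segment and at nodes of Ranvier. Nrxn2 encodes a neurexin, a presynaptic receptor that binds neuroligins and other ligands across the synaptic cleft, and Nxph4 encodes a neurexophilin, a secreted glycoprotein of the family that binds alpha-neurexins.

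Of the 5 genes, 1 had entries among the RefSeq promoters at hand, Nfasc, with 2 start sites on chromosome 13 (GRCr8, minus strand). The 250 bases before each start are shown because all 5 genes stood higher with VPA and Nfasc is the one whose promoter letters were at hand. Capitals mark the single match found on either strand to any of the motifs listed after the sequences.
Nfasc start 1, chr13:46701165-46701414: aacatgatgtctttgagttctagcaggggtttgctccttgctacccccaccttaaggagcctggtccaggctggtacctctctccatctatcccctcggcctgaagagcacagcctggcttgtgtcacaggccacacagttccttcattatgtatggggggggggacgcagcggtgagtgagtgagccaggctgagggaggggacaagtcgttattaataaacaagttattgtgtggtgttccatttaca
Nfasc start 2, chr13:46627849-46628098: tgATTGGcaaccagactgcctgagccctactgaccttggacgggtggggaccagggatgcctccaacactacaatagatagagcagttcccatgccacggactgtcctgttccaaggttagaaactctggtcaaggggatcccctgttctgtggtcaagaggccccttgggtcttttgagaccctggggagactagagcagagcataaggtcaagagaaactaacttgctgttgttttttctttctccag

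The capitals at start 2 match the CCAAT box in letters alone, on the opposite strand at positions -248 to -244 from the start. CCAAT was present in 34.0% of the 33469 windows of 250 bases in the same RefSeq table. Neither window held GGGCGG (the GC box, in 30.5% of windows), TATAAA (12.9%), CACGTG (5.59%) or CAGCTG (12.0%). TTCAGCACC, the left part of the RE1 element bound by the repressor REST, was absent as well (0.305% of windows), as was the right part of RE1 (0.108%). GC content was 52.8% and 52.0%, with 4 and 2 CpG dinucleotides, against a median of 51.2% and 5 over all windows. Start 2 lies downstream of start 1 on this strand. Whether either annotated start is used in RN46A cells was not tested, so the windows may not be promoters there. Matches describe these windows only.

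Libraries held 9580591 to 13030300 counts each, and 1 count was worth 0.0770 to 0.109 CPM (counts scaled to library size, with sizes adjusted by the trimmed mean of M values, TMM). All 5 genes passed the filter on low counts with all 9 libraries, which left 12719 genes to test. With control and lithium libraries alone, 2 did so, L1cam and Nrcam. The other 3 therefore entered the fit through the VPA libraries, where they were high. The labels do not say whether a group's 3 libraries were separate cultures, so the p-values reflect variation among these libraries and that variation may be technical. In these bulk samples, more cells of a kind and more RNA per cell cannot be told apart.

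The L1 family genes are described first, by library. L1cam (ENSRNOG00000061230), the founding member of the family, was at 0.907, 1.09 and 0.711 CPM in controls 1, 2 and 3, at 0.517, 1.49 and 0.770 CPM in lithium 1, 2 and 3, and at 7.49, 6.85 and 6.75 CPM in VPA 1, 2 and 3. The VPA libraries lay above all others, while control and lithium overlapped. The lowest VPA library was 6.22 times the highest control. VPA libraries held 64 to 96 reads of L1cam each and controls 8 to 10, so the control level carries wide counting error.

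Nfasc (ENSRNOG00000030515) was at 0.998, 0.434 and 0.622 CPM in the controls, at 0.689, 0.526 and 1.16 CPM with lithium and at 4.60, 3.96 and 5.14 CPM with VPA. Again the VPA libraries stood apart from both other groups, which overlapped. Nrcam (ENSRNOG00000004067), which binds neurofascin and contactins, was at 3.45, 2.82 and 2.49 CPM in the controls, at 4.22, 4.39 and 4.55 CPM with lithium and at 14.5, 10.8 and 8.35 CPM with VPA. Nrcam was the gene of the 5 whose 3 groups did not overlap at all: every lithium library lay above every control and below every VPA library. It also had the most reads in the controls, 92 in all against 11 to 28 for the other 4 genes.

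The neurexin genes started lower. Nrxn2 (ENSRNOG00000021103) was at 0.181, 0.434 and 0.711 CPM in the controls, at 0.603, 0.175 and 0.462 CPM with lithium and at 4.99, 5.03 and 7.31 CPM with VPA. Nxph4 (ENSRNOG00000025059) was at 0.454, 0 and 0.533 CPM in the controls, at 0.345, 0.439 and 0.385 CPM with lithium and at 4.76, 8.14 and 8.996 CPM with VPA. For both genes the VPA libraries lay far above the rest and control and lithium overlapped. In control 2 the 0 reads of Nxph4 allow up to 0.326 CPM (3 counts). Nrxn2 had 14 reads in all controls and Nxph4 11, and in the controls their mean CPM exceeded that of 0.983% and 0.527% of the genes tested. With VPA those shares were 20.0% and 23.0%, so both were still below most tested genes in CPM, a scale that takes no account of gene length.

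**Figure D1:**
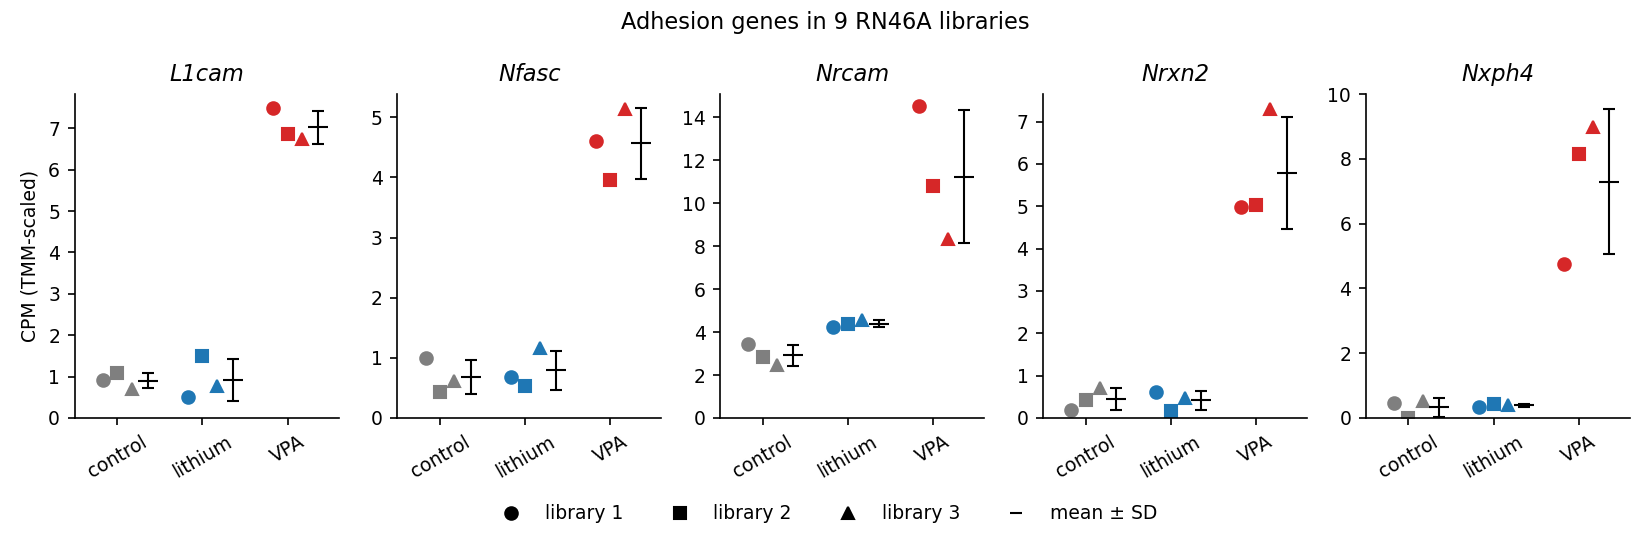
TMM-scaled CPM (y axis, linear from 0, a scale per gene) of the 5 genes in 3 control, 3 lithium and 3 VPA libraries of RN46A cells; symbols give the library number and black bars the mean ± SD (n = 3). The VPA libraries lie above all others for each gene, and for Nrcam the lithium libraries (4.22 to 4.55 CPM) lie between control and VPA.

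Because the genes were chosen from tables of this contrast, VPA against control is given as a description without a test. The fitted log2 fold changes with their standard errors were 4.36 ± 0.53 for Nxph4, 3.67 ± 0.46 for Nrxn2, 2.96 ± 0.36 for L1cam, 2.704 ± 0.38 for Nfasc and 1.94 ± 0.26 for Nrcam. The ratios of mean CPM were 22.2 for Nxph4, 13.1 for Nrxn2, 7.80 for L1cam, 6.67 for Nfasc and 3.85 for Nrcam. The 2 genes of the neurexin system thus had larger ratios than the 3 of the L1 family. Differences between the genes were not tested. At an adjusted p under 0.05, 5.71% of all genes tested were higher with VPA (8.7% were called in either direction), and 14.1% had every VPA library above every control. All 5 genes were among both, which follows from how they were chosen and is no result about them. Over all tested genes the median log2 change was -0.0096.

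For the sparse control levels the reads of each group were also pooled. Pooled CPM of Nxph4 was 20.6 times higher with VPA, with a 95% counting interval of 11.3 to 41.8 (exact, from 249 and 11 reads). For Nrxn2 the pooled ratio was 13.1 with an interval of 7.64 to 24.4, from 202 and 14 reads. Both intervals, like those for single libraries, cover counting error only. The size of these changes is therefore known less well than that of Nrcam, at 3.87 with an interval of 3.07 to 4.91.

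Libraries with the same number are compared next on the log2 scale of CPM with a prior count of 2, which shrinks low values. VPA minus control was 2.82, 2.48 and 2.96 for L1cam in numbers 1, 2 and 3, and 2.02, 2.76 and 2.74 for Nfasc. It was 2.02, 1.87 and 1.68 for Nrcam, 3.85, 3.09 and 3.08 for Nrxn2, and 2.97, 5.56 and 3.69 for Nxph4. Since the groups did not overlap, the sign is positive under any matching of libraries. Nxph4 had the widest spread, with its highest value where the control had 0 reads. With the replicate number as a block over VPA and control alone, the fitted changes stayed between 1.92 for Nrcam and 4.33 for Nxph4. The count of called genes over the whole table was 1106 without the block and 1741 with the block over all 9 libraries. It was 2408 when the block was added and the lithium libraries were dropped as well.

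**Figure D2:**
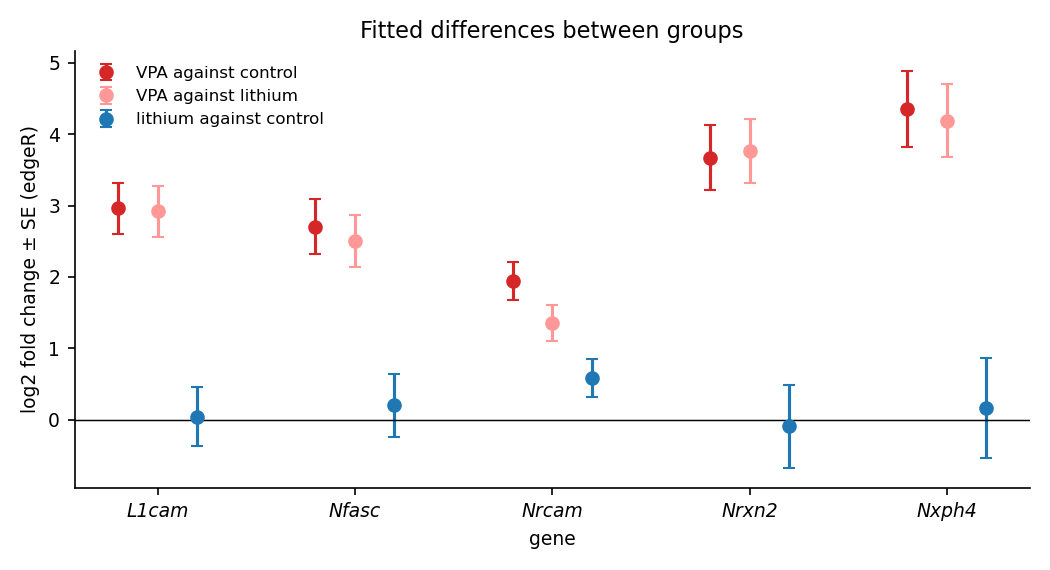
Fitted log2 fold changes (y axis) with standard errors from edgeR for the 5 genes (x axis), for VPA against control, VPA against lithium and lithium against control, n = 3 libraries per group. Points for both VPA comparisons lie between 1.35 and 4.36, and those for lithium against control between -0.092 and 0.58; the comparisons share libraries.

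Lithium against control is the contrast that the choice of the genes did not use, although its controls are the same libraries. None of the 5 genes was called, and neither was any of the 12719 genes tested, a background of 0%. In edgeR 116 genes (0.912%) had an unadjusted p under 0.05, and DESeq2 called 0 genes and had 113 at that unadjusted level. Both numbers are lower than a level of 0.05 would give if no gene changed, so the tests were conservative for this contrast. Their 0 calls therefore do not show that lithium changed nothing. Why so few genes reached that level was not tested. Nrcam, from 2.92 ± 0.487 CPM in control to 4.38 ± 0.162 CPM with lithium (SD, n = 3), had a log2 change of 0.58 ± 0.27 (SE), with an unadjusted p of 0.0507 and an adjusted p of 1 by edgeR (quasi-likelihood, adjusted by Benjamini-Hochberg). The 95% interval of that change was -0.0022 to 1.17. Of all genes tested, 1.71% had every lithium library above every control, and of the 5 genes 1 did. The difference did not pass the correction.

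The other 4 genes had lithium changes near 0 with wide intervals. The log2 change was 0.043 ± 0.41 for L1cam, with a 95% interval of -0.86 to 0.94, and 0.20 ± 0.44 for Nfasc, with an interval of -0.76 to 1.16. It was -0.092 ± 0.58 for Nrxn2, from -1.37 to 1.19, and 0.17 ± 0.70 for Nxph4, from -1.36 to 1.70. Their unadjusted p-values in edgeR's quasi-likelihood test were 0.919, 0.655, 0.878 and 0.813, and every Benjamini-Hochberg adjusted p was 1. Nfasc, Nrxn2 and Nxph4 did not pass the filter with control and lithium libraries alone. They were tested because the VPA libraries were high, so their p-values are a description. No lithium difference was detectable for these 4 genes at this depth, and the intervals do not show that their levels were equal. The upper bound corresponds to a ratio of 1.92 for L1cam and of 3.25 for Nxph4. The authors' deposited lithium table, whose highest unadjusted p is 0.0499, lists 137 genes and 0 of these 5.

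VPA against lithium shares the VPA libraries with the contrast that chose the genes, and it is likewise given without a test. The log2 changes were 4.19 ± 0.51 for Nxph4, 3.76 ± 0.45 for Nrxn2, 2.92 ± 0.35 for L1cam, 2.503 ± 0.37 for Nfasc and 1.35 ± 0.25 for Nrcam. Of all genes tested, 5.61% were called higher (7.93% in either direction) and 15.8% had every VPA library above every lithium library. All 5 genes were among both, from which nothing is read, because the VPA libraries also chose them. For Nrcam this was less than the 1.94 against control, as its lithium libraries stood above the controls. The lowest VPA library of Nrcam was 1.84 times the highest lithium library, compared with 10.8 times for Nxph4.

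The 3 VPA libraries did not rank the genes alike. Nrcam was highest in VPA 1, at 14.5 CPM with a 95% Poisson interval of 12.5 to 16.8, and lowest in VPA 3, at 8.35 CPM with an interval of 6.83 to 10.1. Nxph4 ran the other way, at 4.76 CPM (3.64 to 6.11) in VPA 1 and 8.996 CPM (7.41 to 10.8) in VPA 3. For these genes the intervals of VPA 1 and VPA 3 did not overlap, and these intervals cover counting error only, not the spread expected between separate libraries. Nrxn2 was also highest in VPA 3, at 7.31 CPM (5.88 to 8.97), but its interval overlapped that of VPA 1 (3.85 to 6.38). The coefficient of variation over the VPA libraries was 5.70% for L1cam and 12.9% for Nfasc. It was 22.9% for Nrxn2, 27.6% for Nrcam and 30.7% for Nxph4. For L1cam and Nfasc the Poisson intervals of the 3 VPA libraries all overlapped, so no order of steadiness between them is read.

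Deviations from the group means were compared between the genes over the 9 libraries as a description. Pearson correlations of these deviations (log2 CPM, prior count 2) were between -0.73 for L1cam with Nrxn2 and 0.46 for Nfasc with Nxph4, and that of Nrcam with Nrxn2 was -0.60. Without removing the group means, all 10 pairs of genes had correlations of 0.84 to 0.95. The points share libraries and depth, and in the controls most genes had few reads. With 0 to 17 reads per control or lithium library for every gene but Nrcam, counting error alone is large in these deviations, and no shared or opposed variation is read from them.

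**Figure D3:**
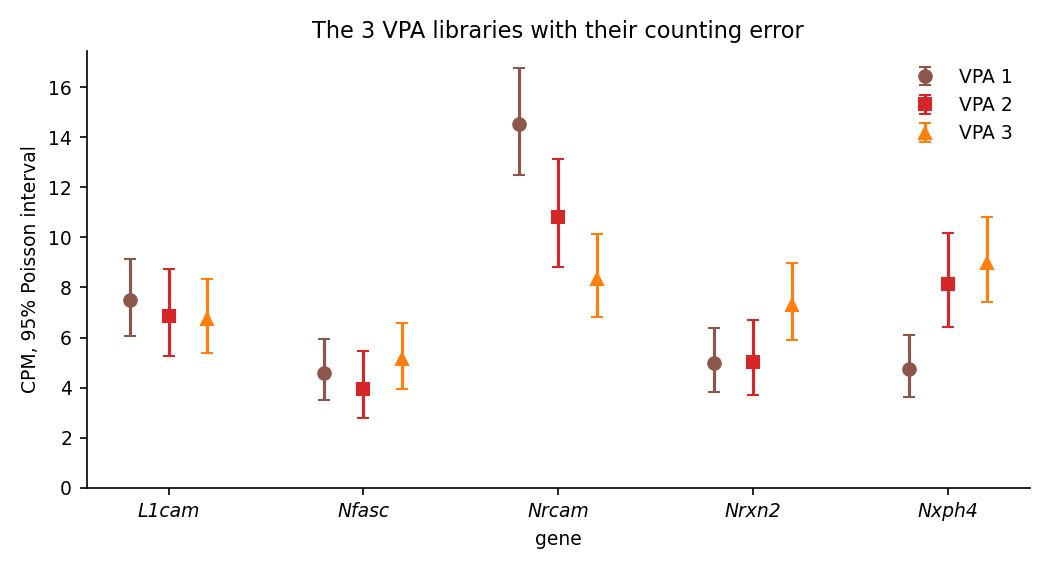
CPM (y axis, linear from 0) of the 5 genes (x axis) in each of the 3 VPA libraries, with exact 95% Poisson intervals that cover counting error only. Nrcam is highest in VPA 1 (14.5 CPM) and Nxph4 in VPA 3 (8.996 CPM), with intervals of VPA 1 and VPA 3 that do not overlap in either gene.

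The authors' deposited tables give values of their own for the same contrast. Log2 fold changes in the authors' deposited DESeq2 table were 3.0 for Nxph4, 2.5 for Nrxn2, 2.3 for L1cam, 2.0 for Nfasc and 1.6 for Nrcam, in the same order as in the edgeR fit but smaller. Whether those were shrunken is not given in the sources used here. DESeq2 run on the deposited counts of all 9 libraries gave 4.40, 3.69, 2.97, 2.72 and 1.93 for the same genes in that order. The cause of the gap to the authors' values was not tested. The authors' deposited Salmon and sleuth table lists 1 transcript each of Nxph4 (ENSRNOT00000047449), Nrxn2 (ENSRNOT00000054828) and L1cam (ENSRNOT00000080945), with effects that convert from natural logs to log2 values of 4.36 ± 0.67, 3.34 ± 1.09 and 2.46 ± 0.49 (SE). Which group is set over which is not stated for these effects. Their direction was inferred from the signs of the authors' DESeq2 and Cufflinks values, so it is no independent evidence on direction. Nrxn2 makes long alpha and short beta forms from separate promoters, and the form of the listed transcript is not given in the sources used here.

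Levels of different genes can be compared only per length, which the authors' deposited Cufflinks table allows for 2 of the 5, with 1 FPKM value per group. In that authors' deposited table, Nrcam (chromosome 6, 64297887 to 64864996, build not given) was at 0.848 FPKM in control and 2.86 FPKM with VPA. Nxph4 (chromosome 7, 70833659 to 70842503) was at 0.248 FPKM in control and 4.67 FPKM with VPA in the authors' deposited table. On this scale Nxph4 lay below Nrcam in control and above it with VPA, with no replicate error to set beside the order.

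Whether counting used strand is not stated, so an overlapping gene could affect these counts. In the RefSeq gene table (GRCr8) 0 genes overlap any of the 5. The counts were made on Ensembl genes of a build that is not given, where overlaps may differ. Of the 10 protein-coding genes next to them, 2 had a name in the authors' tables and enough counts to be tested. As names came with the tables of VPA effects, a change in these 2 is no independent evidence about the neighbourhood, and the other 8 are not described. Pdzd4, beside L1cam, had a log2 change with VPA of 1.19 ± 0.29 and an adjusted p of 0.0282 in edgeR's test, and Rasgrp2, beside Nrxn2, of 1.11 ± 0.26 with an adjusted p of 0.0203. Pdzd4 was no longer called without control 1, control 2, VPA 1 or VPA 3, nor Rasgrp2 without any 1 of control 1, control 3, VPA 1, VPA 2 or VPA 3; over all alternatives the edgeR or DESeq2 adjusted p ran from 0.0015 to 0.108 for Pdzd4 and from 0.0087 to 0.0638 for Rasgrp2.

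Other genes that work with these proteins were taken from 3 lists. Gene names came only from the authors' tables, which were themselves chosen by p-value on these libraries. The counts, calls and p-values below, marker lists included, therefore give no independent evidence on direction or on the share that changed. Of 43 genes around the L1 family and its ankyrin and spectrin anchor, 6 had a name and all 6 rose with VPA, where 5.71% of all tested genes rose and 2.99% fell, with a median log2 change of 1.51 against -0.0096 over all genes tested. Ptprz1, a receptor phosphatase that binds L1 family proteins and contactins, was at 1.27, 1.30 and 2.49 CPM in the controls and 8.97, 7.50 and 7.55 CPM with VPA. Cntn1, a contactin anchored to the membrane by a lipid, was at 0.998, 0.434 and 0.533 CPM in the controls and 4.45, 2.36 and 4.42 CPM with VPA.

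Among the genes of the anchor with a name, Ank3, the ankyrin that holds neurofascin and NrCAM at the axon initial segment, went from 9.44 ± 0.777 to 16.6 ± 0.809 CPM, and Sptbn4, the spectrin of the same structure, from 5.79 ± 0.573 to 11.7 ± 0.411 CPM (SD, n = 3). Their log2 changes were 0.81 ± 0.20 and 1.02 ± 0.21, with adjusted p = 0.026 and 0.0122 in edgeR's quasi-likelihood test. VPA and control libraries did not overlap for either gene, and 14.1% of all genes tested had every VPA library above every control. Ank3 lost its call without any 1 of the 6 control and VPA libraries (edgeR adjusted p = 0.0502 to 0.0881), and 3 of the 6 genes of this list were called without control 2, VPA 1, VPA 2 or VPA 3.

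Of 44 neurexins, neurexin ligands and scaffolds besides Nrxn2 and Nxph4, 3 had a name, of which 2 rose with VPA and 0 fell, beside 5.71% and 2.99% of all tested genes, with a median log2 change of 1.11. Nxph3, a second neurexophilin, was at 4.45, 5.75 and 6.75 CPM in the controls and at 8.97, 13.3 and 14.4 CPM with VPA, a log2 change of 1.11 ± 0.26. Like Nxph4 it was lowest in VPA 1 and highest in VPA 3. Nxph3 was no longer called without control 1, control 2, VPA 2 or VPA 3 (edgeR adjusted p = 0.0818, 0.0574, 0.0772 and 0.0812). Cbln2, a secreted cerebellin that bridges neurexins to postsynaptic receptors, had 48 reads with VPA against 3 in control, a pooled ratio of 14.6 (4.69 to 73.1, 95% counting interval). Cask, a scaffold that binds the neurexin tail, had a log2 change of 0.65 ± 0.24 that did not pass (edgeR adjusted p = 0.13), and passed with the replicate block on VPA and control alone (0.0185).

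Of 66 other neural adhesion genes, 13 had a name and 12 enough counts; 7 rose, 1 fell and 4 did not pass, beside 5.71% and 2.99% of all tested genes that rose and fell, with a median log2 change of 1.51. Lingo1, a leucine-rich repeat protein of axons, was at 0.998, 0.977 and 0.444 CPM in the controls and at 6.55, 4.93 and 11.2 CPM with VPA, a log2 change of 3.23 ± 0.41. The immunoglobulin protein Igsf9 changed by 1.36 ± 0.25, the neuron-glia adhesion protein Astn1 by 1.99 ± 0.37 and the leucine-rich repeat protein Flrt3 by 1.30 ± 0.24 (log2 ± SE). The fall was that of Lrfn4, a postsynaptic adhesion protein named after its values were seen, at -0.75 ± 0.20; it lost its call without control 2, control 3, lithium 2, VPA 1, VPA 2 or VPA 3 (edgeR adjusted p = 0.0523 to 0.134). With the replicate block 10 rose and 2 fell, and by DESeq2 or without the filter 11 rose and 2 fell of 13 tested. With 1 library left out, 5 to 9 rose and 0 or 1 fell, the lowest being 5 and 0 without VPA 3. With lithium none of the 21 list genes tested was called by edgeR or DESeq2, and the list medians were 0.087, -0.13 and -0.052 on the log2 scale, against 0.0017 over all genes.

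**Figure D4:**
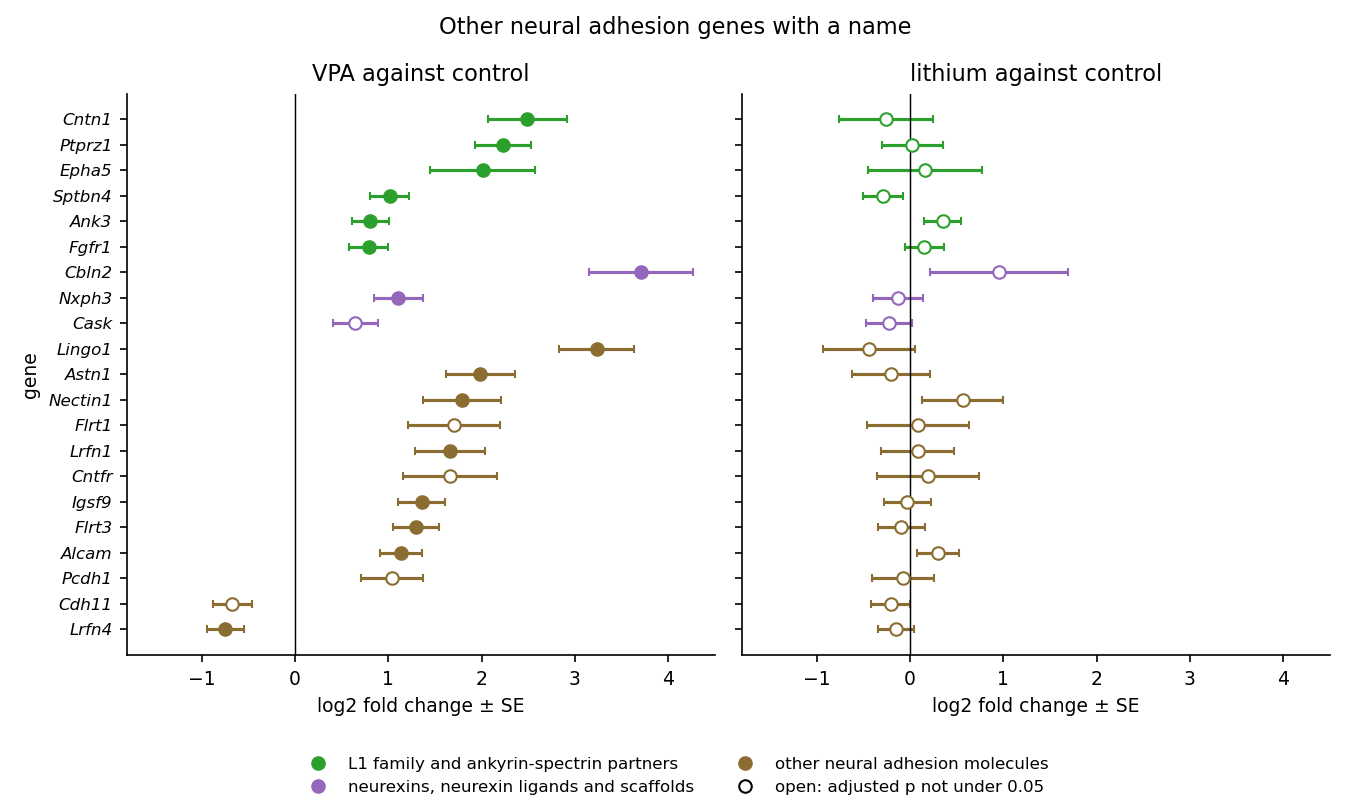
Log2 fold changes ± SE (x axis) of the 21 tested list genes with a name (y axis), for VPA against control (left) and lithium against control (right), edgeR, n = 3 libraries per group; filled points have an adjusted p under 0.05. With VPA 15 points are filled to the right of 0 and 1, Lrfn4, to the left, and with lithium all are open.

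In every list of cell type markers with a name, the sums with VPA lay outside the control range, while lithium and control sums overlapped. Neuronal markers had 9 names of 14 and summed to 141 to 198 CPM in the controls. Their sums were 134 to 173 CPM with lithium and 330 to 463 CPM with VPA. The largest part was Uchl1, with means of 104 CPM in control and 192 CPM with VPA. Of the 8 tested, 7 rose with VPA, beside 5.71% of all tested genes. Uchl1 was the 1 that did not pass (edgeR adjusted p = 0.0524), though it passed by DESeq2 (adjusted p = 0.0175). Nefh, 1 of the 7, lost its call without control 1, control 2 or VPA 3 (edgeR adjusted p = 0.110, 0.0997 and 0.136). Without VPA 3, 6 of 8 were called higher, and by DESeq2 9 of 9 were. Markers of neural crest, Schwann cells and other glia, cells that also use L1 family proteins, had 4 names of 13. They summed to 11.1 to 16.9 CPM in control, 14.4 to 15.9 CPM with lithium and 55.9 to 65.1 CPM with VPA. In that list Erbb3, Ngfr and Sox10 rose, the last with 90 reads against 3, and S100b fell, a call that was lost without control 1, control 3 or any 1 of the VPA libraries (edgeR adjusted p = 0.0506 to 0.0738). Fibroblast and mesenchymal markers, 7 of 11 named, summed to 1813 to 3645 CPM in control, 1212 to 2668 CPM with lithium and 473 to 745 CPM with VPA, where Lum was at 0 reads. Most of that sum was S100a4, with means of 2219 CPM in control and 488 CPM with VPA. Of these 7 markers 5 fell, beside 2.99% of all tested genes, and 3 to 5 fell under the alternatives. Dcn and Lum lost their calls without the filter (edgeR adjusted p = 0.114 and 0.212) and in some fits with 1 library left out. Cnn1 rose from 0.659 to 3.38 CPM, and Pdgfra, at 5.29 and 8.21 CPM, did not pass. Of the epithelial and leucocyte markers 1 each had a name, Krt8 at 8.35 to 12.9 CPM in control and 2.17 to 4.18 CPM with VPA, and Cd68 at 8.53 to 14.2 and 23.3 to 41.3 CPM. The part of these shifts in the levels of the 5 genes was not tested. None of 9 serotonergic markers had a name in the tables, so the labelled cell type was not checked by name.

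Among the 826 named genes that reached 5 CPM on average, those most like the average profile of the 5 genes were sought by Pearson correlation of log2 CPM over the 9 libraries, as a description. They were Atp1b2, a sodium pump subunit that also acts in adhesion of glia (0.987), the synaptic calcium sensor Syt1 (0.986), the fatty acid ligase Acsl1 (0.982), the tetraspanin Tspan13 (0.981) and the neurotrophin receptor Ngfr (0.980). Syt1, for example, had means of 2.02, 1.90 and 12.2 CPM in control, lithium and VPA. Closest to L1cam alone were Clgn, a chaperone (0.975), B3gnt5 (0.967) and Tspan13 (0.965). Closest to Nfasc were Atp1b2 (0.979), the vesicle protein Scamp5 (0.979) and Gyg1 (0.976). For Nrcam they were Dsel (0.972), Casc4 (0.971) and the neuronal membrane glycoprotein Gpm6a (0.969). For Nrxn2 they were Ggt7 (0.991), the autophagy protein Gabarapl1 (0.984) and Sqrdl (0.982), and for Nxph4 the proton pump subunit Atp6v0a1 (0.988), Plcg2 (0.987) and Atp1b2 (0.984). Dsel followed the order of Nrcam, with means of 6.25, 7.52 and 13.8 CPM. The named genes were listed for their VPA change, and these points share libraries.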

How the data were processed

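RNA-seq read counts of 9 RN46A libraries (3 control, 3 lithium, 3 VPA) were analysed, grouped and numbered by the submitters' titles. The authors deposited raw counts per Ensembl gene, made with HTSeq per the table's title; the submitters' processing notes name STAR 2.5.1, Salmon 0.6.1 and Cufflinks 2.2.1. The genome build is not given in the sources used here. The authors also deposited log2 fold changes with p-values from DESeq2, FPKM values per group from Cufflinks, natural log effects per transcript from Salmon and sleuth, and p-values for lithium, per the file headers. A table titled for kallisto repeats the DESeq2 table and was not used.

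The deposited counts entered edgeR 4.0.16 (R 4.3.3) without change. Library sizes were scaled by TMM, low genes were removed by filterByExpr at a minimum count of 10, and group means of the 9 libraries were fitted by robust quasi-likelihood with 6 residual degrees of freedom. Two-sided p-values were adjusted by Benjamini-Hochberg over 12719 genes, and genes under 0.05 were called. The standard error was the log2 change over the square root of F, and 95% intervals used the t quantile of the fit. Symbols came only from the authors' tables (1384 identifiers). The 5 genes and the lists were chosen with earlier results of these data known. Named genes were the 5 members, up to 4 tested genes of each adhesion list by smallest p, and the genes most like the members in profile. Neighbouring genes were named where they had a symbol and enough counts. Lrfn4 and the single cell type markers were named outside this rule, so they are no fixed selection.

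Control and VPA libraries of the same title number shared deviations from their means (correlations 0.6, 0.533 and 0.525 over 10288 genes), and were treated as pairs in the blocked alternative. No label states a pairing. Control and lithium libraries shared deviations in number 3 (0.801) but not in numbers 1 and 2 (-0.418 and -0.0815). Lithium and VPA libraries likewise did so in number 3 (0.538) but not in numbers 1 and 2 (-0.181 and 0.053). Alternatives were median-ratio and total scaling, no filter, DESeq2 1.42.0, the replicate block, and leaving out each library. Promoter letters are from RefSeq (GRCr8).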

Additional observations from a re-analysis of the deposited data

How the results depend on the processing

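With lithium none of the 5 genes was called under any alternative that tested them, and with the block on lithium and control alone 2 of the 5 were tested. Their VPA calls are not used, since they were chosen for that change. With VPA against control, called genes numbered 1741 with the replicate block over all 9 libraries and 2408 when the block was fitted to VPA and control only, against 1106 without it, and 638 to 1026 when 1 library was left out. With VPA against lithium they numbered 1609 with the replicate block over all 9 libraries, against 1009, and 544 to 1197 when 1 library was left out. The lithium count was 0 under all alternatives. The sign of the lithium change turned when 1 library was left out for L1cam (-0.46 to 0.30), Nfasc (-0.19 to 0.57), Nrxn2 (-0.47 to 0.46) and Nxph4 (-0.35 to 0.65), and for L1cam also with the replicate block on lithium and control alone (-0.014). Nrcam kept its sign with lithium, at 0.48 to 0.72 over all alternatives, with unadjusted p of 0.0311 to 0.145 and adjusted p of 0.999 to 1 in edgeR and DESeq2. With VPA against control, Nrxn2 was at 4.23 without control 3 (3.67 with all libraries), and with VPA against lithium L1cam was at 3.42 without lithium 2 (2.92 with all). The cause was not tested. Low control and lithium counts limit how precisely the sizes of the Nrxn2 and Nxph4 changes are known.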
